A study of Homo sapiens with 4 samples.

Results

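The zinc finger genes of human chromosome 19 were compared between prostate cancer cells expressing PDEF and cells with an empty vector. Members were taken by name and place, by a rule that uses no signal, though the family was picked with earlier results of these data known. A member was a gene whose symbol is ZNF followed by digits and at most 1 final letter, that lies on chromosome 19, and that has a probe set naming it alone. Of 263 such symbols on chromosome 19 in the RefSeq gene table, 233 were measured, and the other 30, of which 16 are named only in probe sets shared by several genes, were not analysed here. The 233 members, 225 protein-coding genes and 8 transcribed pseudogenes, were followed among 18417 genes in all. RNA came from cells labelled PC3, an established prostate cancer line that derives from a metastasis in bone. The cells were stably transfected with empty pBABE vector (VC-PC3, labelled PC3-SCR in the sample titles, 2 arrays) or with PDEF, the ETS transcription factor encoded by SPDEF (PDEF-PC3, labelled PC3-PDEF, 2 arrays). All were grown in the same serum-containing medium and hybridized to Affymetrix HuGene-1.0-st-v1 arrays. No source used here says whether each group was 1 clone or a pool, or whether separate cultures lie behind the arrays of each group. The p-values therefore rest on the spread between these arrays alone, and that spread may be technical. Values are log2 signals as deposited.

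Most zinc finger genes of chromosome 19 arose by repeated tandem duplication and lie in clusters of close relatives. Many encode proteins with a KRAB domain at one end, which recruits the scaffold protein TRIM28, and an array of fingers at the other, which reads a DNA sequence, often within a transposable element. TRIM28 in turn brings the histone methyltransferase SETDB1 and HP1 proteins, which silence chromatin. The zinc finger genes themselves are known to be covered by the same silent mark over their finger-coding ends, and their promoters are rich in CpG, the dinucleotide at which DNA is methylated. Which members encode a KRAB domain was not assessed here.

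The array label was first set against genes that mark PC3 cells. SPDEF, with log2 signals of 5.99 and 6.06 in VC-PC3 arrays against 6.85 and 6.73 in PDEF-PC3 arrays, rose by 0.77 (standard error 0.088, adjusted p = 0.000563, limma). Its VC-PC3 signals lay just above the background level of those arrays (5.94 and 6.01, defined below). The rise was smaller than the differences of the next 2 genes. CTNNA1 and STAT3, which are known to be homozygously deleted in PC3 cells, had signals of 9.76 and 9.86 and of 9.06 and 9.05 in the PDEF-PC3 arrays, against 4.77 and 4.07 and 4.51 and 4.70 in the VC-PC3 arrays. The PDEF-PC3 arrays thus go against their cell line label at these genes, and no result below can be given without them, since both arrays of the group share this. Whatever differs between the groups besides PDEF and the difference made by PDEF cannot be told apart. Of 3 epithelial markers, the keratin genes KRT8 and KRT18 were above background in all arrays, with KRT8 lower in PDEF-PC3 by a log2 difference of -0.64. The third, EPCAM, fell from 7.81 and 7.74 to 5.65 and 6.53 (adjusted p = 0.00212, limma) and was above background on 1 of the PDEF-PC3 arrays. The luminal genes KLK3 and KLK2 and the basal gene KRT5 were above background in no array. Of 17 markers listed for 5 other kinds of cell (fibroblasts, endothelium, leukocytes, neuroendocrine and embryonic cells), 16 were measured. Of these 3 rose and 6 fell, where 26.7% of all genes rose and 24.0% fell. Of the 4 fibroblast markers 3 fell, among them COL1A1, with 8.66 and 8.41 in VC-PC3 and 7.29 and 7.10 in PDEF-PC3. COL1A1 was the only fibroblast marker above background, and was so in both groups. The summed signal of the neuroendocrine markers was 5.97 and 6.06 in VC-PC3 and 7.78 and 8.02 in PDEF-PC3 on the log2 scale, mainly through NCAM1. That of the embryonic markers was 5.45 and 5.29 against 8.54 and 8.78, through LIN28B. Markers of endothelium and leukocytes were below background in all arrays. The part of these differences in the results was not tested.

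The sequences upstream of members that differed most are shown first, because letters in member promoters are counted below. Each is the 250 bases before the RefSeq start site, 5′ to 3′ on the gene's strand, in lower case with every CpG in capitals. They belong to the members with the largest rises and falls for which a promoter sequence was at hand. Those of 5 members that rose were as follows.
ZNF100, GRCh38.p14 chr19:21767580-21767829, minus strand: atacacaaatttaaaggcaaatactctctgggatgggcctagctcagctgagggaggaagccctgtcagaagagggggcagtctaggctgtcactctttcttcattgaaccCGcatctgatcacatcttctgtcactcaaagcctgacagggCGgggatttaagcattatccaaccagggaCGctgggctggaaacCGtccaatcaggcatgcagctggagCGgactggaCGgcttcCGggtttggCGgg
ZNF850, GRCh38.p14 chr19:36772808-36773057, minus strand: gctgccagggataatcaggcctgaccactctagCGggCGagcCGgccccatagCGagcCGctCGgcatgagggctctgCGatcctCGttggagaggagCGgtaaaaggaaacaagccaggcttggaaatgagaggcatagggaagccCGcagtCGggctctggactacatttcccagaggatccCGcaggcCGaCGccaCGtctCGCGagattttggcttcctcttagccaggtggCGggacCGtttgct
ZNF615, GRCh38.p14 chr19:52008212-52008461, minus strand: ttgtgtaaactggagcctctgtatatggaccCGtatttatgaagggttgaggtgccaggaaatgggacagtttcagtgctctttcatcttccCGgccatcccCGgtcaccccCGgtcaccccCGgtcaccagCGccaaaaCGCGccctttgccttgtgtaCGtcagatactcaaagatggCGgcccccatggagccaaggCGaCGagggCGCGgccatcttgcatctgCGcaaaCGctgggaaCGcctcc
ZNF569, GRCh38.p14 chr19:37467445-37467694, minus strand: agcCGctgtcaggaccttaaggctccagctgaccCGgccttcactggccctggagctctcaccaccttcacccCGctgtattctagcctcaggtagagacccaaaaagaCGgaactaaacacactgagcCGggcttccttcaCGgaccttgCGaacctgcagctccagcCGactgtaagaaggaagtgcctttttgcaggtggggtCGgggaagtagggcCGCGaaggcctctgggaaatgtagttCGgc
ZNF382, GRCh38.p14 chr19:36605063-36605312, plus strand: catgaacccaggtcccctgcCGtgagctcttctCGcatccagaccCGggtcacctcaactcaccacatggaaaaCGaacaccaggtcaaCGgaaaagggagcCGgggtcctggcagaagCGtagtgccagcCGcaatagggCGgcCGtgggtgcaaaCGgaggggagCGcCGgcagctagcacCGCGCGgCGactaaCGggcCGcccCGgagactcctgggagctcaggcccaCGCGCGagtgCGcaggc
Those of 3 members that fell were as follows.
ZNF558, GRCh38.p14 chr19:8832305-8832554, minus strand: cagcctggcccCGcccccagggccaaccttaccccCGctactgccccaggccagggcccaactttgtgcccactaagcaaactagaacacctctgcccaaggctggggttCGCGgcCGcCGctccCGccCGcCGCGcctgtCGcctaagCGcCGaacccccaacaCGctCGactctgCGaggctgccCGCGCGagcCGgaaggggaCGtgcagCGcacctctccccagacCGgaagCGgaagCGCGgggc
ZNF808, GRCh38.p14 chr19:52527418-52527667, plus strand: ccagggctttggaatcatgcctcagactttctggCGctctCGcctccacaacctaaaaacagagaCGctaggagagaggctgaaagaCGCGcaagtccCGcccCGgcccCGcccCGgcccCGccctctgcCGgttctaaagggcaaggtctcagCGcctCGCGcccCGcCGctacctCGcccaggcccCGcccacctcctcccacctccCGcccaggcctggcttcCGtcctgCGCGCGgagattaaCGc
ZNF331, GRCh38.p14 chr19:53520764-53521013, plus strand: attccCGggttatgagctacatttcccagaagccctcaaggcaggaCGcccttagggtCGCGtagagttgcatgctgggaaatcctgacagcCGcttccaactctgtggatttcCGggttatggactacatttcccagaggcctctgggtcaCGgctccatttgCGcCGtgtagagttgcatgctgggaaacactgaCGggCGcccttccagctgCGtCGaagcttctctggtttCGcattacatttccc
The windows of ZNF382 and ZNF558, one of a gene that rose and one of a gene that fell, held 24 and 26 CpG. The window of ZNF100, whose rise was among the largest, held 8 CpG, the fewest of those shown.

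More zinc finger genes of chromosome 19 rose than fell in PDEF-PC3 arrays. Of the 233 members, 100 rose and 39 fell in PDEF-PC3, with an adjusted p below 0.05 by limma (Benjamini-Hochberg over all genes), and 94 did not pass the test. In either direction 50.7% of all genes passed it. The share that rose was 42.9%, where 26.7% of all genes rose, and the share that fell was 16.7%, where 24.0% of all genes fell. A change of at least 2-fold was measured for 44 members upward (18.9%, against 8.67% of all genes) and for 8 downward (3.43%, against 6.07% of all genes). The median log2 fold change was 0.115 over the members and -0.05 over all genes. Signals of both groups were fully apart for 181 members (77.7%, against 74.7% of all genes). Zinc finger genes named in the same way on other chromosomes gave nearly the same shares, with 104 of 247 higher (42.1%) and 44 lower (17.8%) and a median of 0.185. The other genes of chromosome 19, with genes of zinc finger symbols left out, showed more falls than rises, with 146 of 1055 higher (13.8%), 294 lower (27.9%) and a median of -0.125. The gap between members and all genes depended on brightness. With the test limited to genes above the median gene, 44.9% of 78 members rose against 42.7% of all genes, and 23.1% fell against 32.7%. With the test limited to genes above background in a group, as defined below, 55.6% of 126 members rose against 42.9% of all genes, and 18.3% fell against 31.4%. This filter also keeps genes that pass it in 1 group only. Of the 126 members, 38.1% passed in PDEF-PC3 alone and 3.97% in VC-PC3 alone, against 12.8% and 4.37% of all genes kept. The shares under this filter are thus partly set by the filter itself. Differences between these lists were not tested, and the genes of a list are not independent replicates. When each array was left out in turn, 65 to 74 members rose and 16 to 23 fell. There were 65 higher and 23 lower without VC-PC3 replicate 1, 22 lower without VC-PC3 replicate 2, and 16 lower without replicate 1 or 2 of PDEF-PC3. Over all genes the shares in these fits were 16.3% to 19.7% higher and 12.6% to 15.5% lower.

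**Figure D1:**
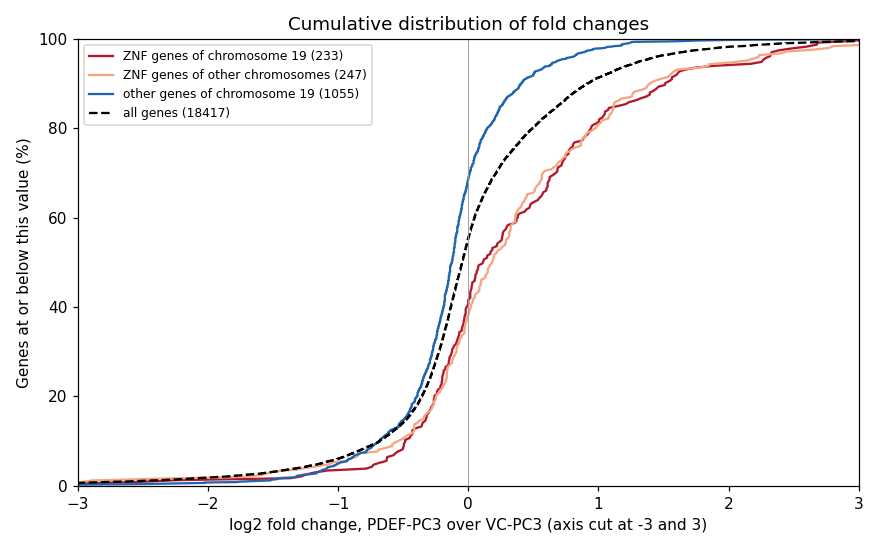
Share of genes (vertical axis, percent) at or below each log2 fold change from VC-PC3 to PDEF-PC3 (horizontal axis, cut at -3 and 3), with a line for the ZNF genes of chromosome 19, those of other chromosomes, the other genes of chromosome 19 and all genes. The lines of both ZNF lists lie to the right of all genes above 0, and that of the other chromosome 19 genes to the left (medians of 0.115, 0.185, -0.125 and -0.05).

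Many members were dim, which limits the size of their changes. As a gauge of background, the highest of 341 olfactory receptor genes, which serve smell in the nose, reached signals of 5.94 and 6.01 in VC-PC3 arrays and 5.65 and 5.75 in PDEF-PC3 arrays. A member is called above background in a group where both arrays lay above this gene. By this gauge 78 members were above background in VC-PC3 (33.5%, against 51.1% of all genes) and 121 in PDEF-PC3 (51.9%, against 56.0%). There were 48 above it in PDEF-PC3 alone (20.6%, against 7.48%), 5 in VC-PC3 alone (2.15%, against 2.56%) and 107 in neither group. Of the ZNF genes on other chromosomes, 21.1% were above it in PDEF-PC3 alone and 2.02% in VC-PC3 alone. With 6.01 as 1 common level for all arrays, 35 members were above it in PDEF-PC3 alone (15%, against 5.40% of all genes) and 6 in VC-PC3 alone (2.58%, against 4.26%). For ZNF genes on other chromosomes these shares were 17.0% and 5.67%, so the excess in PDEF-PC3 alone was not particular to chromosome 19. Some members were above background in one group and on neither array of the lower group. Any fold given for them below is a lower limit, counted from the background level of those arrays. The log2 fold changes of such members are differences of signal, and they and those of members below background in both groups give no size for the change in RNA. The probe sets were made to name 1 gene, but signal shared between close relatives of this family cannot be told apart on an array.

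The 12 members described here had the largest differences upward among those above background in PDEF-PC3, and 11 of them were above background on no VC-PC3 array. ZNF738 signals were 4.25 and 4.55 on VC-PC3 arrays against 7.40 and 7.54 on PDEF-PC3 arrays, at least 2.82-fold higher, with a log2 fold change of 3.07 and a standard error of 0.12 (adjusted p = 9.02e-06). Its neighbour ZNF100 had 4.44 and 4.09 against 7.43 and 7.02, a log2 fold change of 2.96 and at least 2.38-fold. For both genes every PDEF-PC3 array lay far above every VC-PC3 array. ZNF850 had 4.23 and 3.95 in VC-PC3 and 6.46 and 7.08 in PDEF-PC3 (at least 1.74-fold higher, log2 fold change 2.68, adjusted p = 0.000104). ZNF615 had 3.56 and 3.29 against 5.96 and 6.25 (at least 1.09-fold higher, log2 fold change 2.68, adjusted p = 2.17e-05). In both genes the VC-PC3 signals lay well below the background gauge. ZNF649, which encodes a repressor known to act on growth factor-responsive transcription, had 4.87 and 4.41 against 6.86 and 7.08, at least 1.99-fold higher. ZNF382, known as a KRAB repressor that is silenced by promoter methylation in several carcinomas, had 3.67 and 3.85 in VC-PC3 and 6.27 and 6.22 in PDEF-PC3 (at least 1.21-fold higher, log2 fold change 2.49, adjusted p = 7.98e-06). ZNF841 was already at background in VC-PC3, with 6.04 and 6.0, of which 1 array lay above the gauge, and had 8.09 and 8.29 in PDEF-PC3, the brightest signal among these 12. ZNF569, ZNF570, ZNF585B and ZNF256 rose by at least 1.11-fold, 1.13-fold, 1.40-fold and 1.49-fold, each with non-overlapping arrays. ZNF493 varied most between replicates, with 3.86 and 4.79 in VC-PC3 and 7.03 and 6.19 in PDEF-PC3 (at least 1.55-fold higher, log2 fold change 2.29, standard error 0.36, adjusted p = 0.00234). With 1 array left out its adjusted p was 0.0808 without VC-PC3 replicate 1, and it was 0.101 and 0.0592 without replicate 1 or 2 of PDEF-PC3.

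Falls were fewer, and the 12 described here are the largest among members above background in VC-PC3. Members below background in both groups were left out, among them ZNF528, ZNF600 and ZNF671 with log2 differences of -1.28, -1.18 and -1.09. ZNF558, which encodes a KRAB protein studied in neural progenitors, had 7.24 and 7.16 in VC-PC3 and 3.76 and 4.17 in PDEF-PC3, at least 2.83-fold lower, with a log2 fold change of -3.24 and a standard error of 0.14 (adjusted p = 1.27e-05). ZNF808, a gene whose loss is known to impair pancreas development, had 8.61 and 8.63 in VC-PC3 and 6.03 and 6.08 in PDEF-PC3, a log2 fold change of -2.57 (standard error 0.081) and 5.92-fold lower, with both groups above background. ZNF331, known as an imprinted gene, had 6.62 and 6.79 against 4.67 and 4.27 and was at least 2.01-fold lower. ZNF91, whose protein is known to repress the SVA family of retrotransposons, had 6.87 and 7.04 against 5.50 and 5.67 (log2 fold change -1.37, adjusted p = 9.69e-05). It was at least 2.39-fold lower, and ZNF544 was at least 1.66-fold lower. The other 7 of the 12 had smaller differences. ZNF83 fell from 8.45 and 8.59 to 7.68 and 7.79, a log2 fold change of -0.79, and stayed bright in both groups. ZNF699 fell by 0.74 on the log2 scale, at least 1.41-fold, and ZNF766 fell by 0.69. ZNF175, ZNF627, ZNF580 and ZNF773 fell by 0.50 to 0.63, and these were less firm. With 1 array left out, ZNF773 had an adjusted p of 0.0899 to 0.195 in 3 of the 4 fits, and ZNF627 of 0.0821 to 0.125 in 3 of the 4. ZNF175 had 0.128 and 0.129 without replicate 1 or 2 of PDEF-PC3, and ZNF580 had 0.0915 and 0.0812 in the same fits. A block for the replicate number gave ZNF627 an adjusted p of 0.0576 and ZNF773 one of 0.0757.

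**Figure D2:**
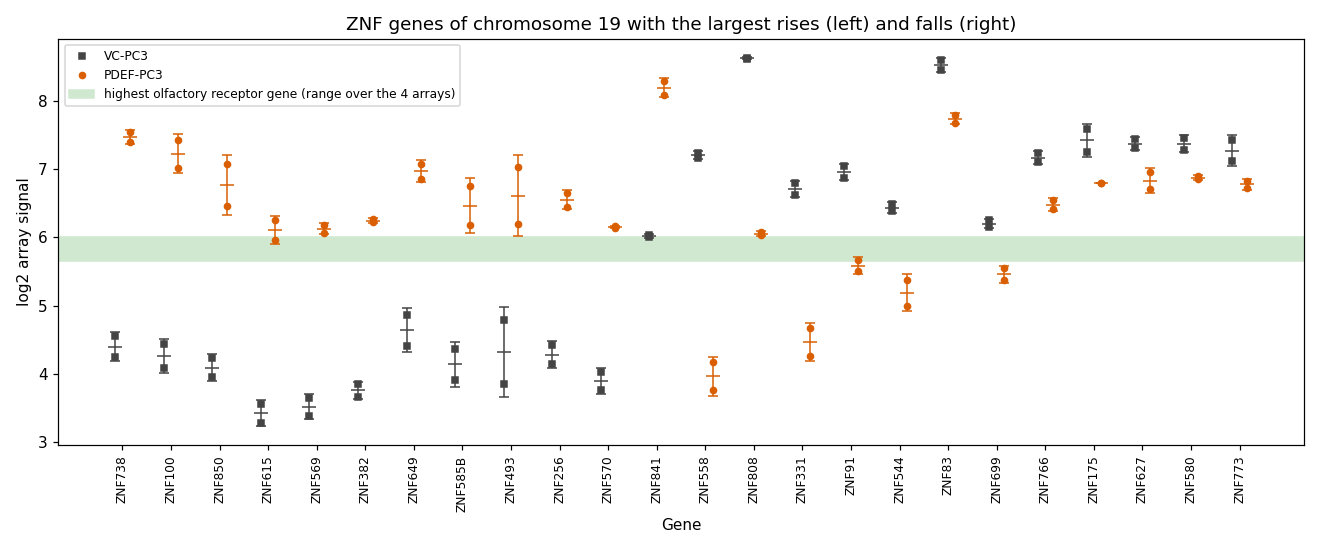
Log2 array signal (vertical axis) of the 12 ZNF genes of chromosome 19 with the largest rises and the 12 with the largest falls (horizontal axis) in VC-PC3 (squares) and PDEF-PC3 (circles), with group mean (line) and SD (bar, n = 2), and a band for the highest olfactory receptor gene (5.65 to 6.01). Among the rises all VC-PC3 points but those of ZNF841 lie below the band, while among the falls every VC-PC3 point lies above it, up to ZNF808 at 8.61 and 8.63.

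The changes were then read in the order of the genes along the chromosome, since neighbours of this family are often close relatives. Members were joined into a run where at most 10 other measured genes lay between one and the next, and runs of at least 5 members were kept. This gave 9 runs holding 221 members, with 12 outside. The split between rises and falls differed from run to run, where 26.7% of all genes rose and 24.0% fell. In the run from ZNF565 to ZNF573, 21 of 26 members rose and 1 fell, with a median log2 fold change of 1.20. All 5 members of the run from ZNF302 to ZNF792 rose (median 0.72), led by ZNF30 with 4.84 and 4.55 against 5.88 and 5.81. The run from ZNF575 to ZNF180 had 12 of 20 higher and 1 lower (median 0.46). With 1 array left out its median was 0.4 to 0.5, and fewer of its members, and of all genes, passed the test. The runs from ZNF175 to ZNF331 and from ZNF628 to ZNF446 held changes in both directions, at shares near those of all genes. The former had 12 higher (30.8%) and 10 lower (25.6%) of 39, and the latter 18 higher (32.1%) and 16 lower (28.6%) of 56. In the latter the median was 0.02, and -0.01 to 0.04 with 1 array left out, where fewer members passed the test in either direction. The run from ZNF653 to ZNF791 had 6 higher and 5 lower of 23 and no called change of 2-fold. With 1 array left out, this run had fewer members past the test and a median of -0.06 to 0.0 (-0.07 with all arrays). Its largest difference was that of ZNF69, with 6.03 and 5.91 against 5.82 and 4.66, which did not pass the test (adjusted p = 0.122) but had an adjusted p of 0.0196 without PDEF-PC3 replicate 1. Within that run the read-through gene ZNF625-ZNF20, no member by its name, had 7.84 and 7.90 against 5.34 and 5.77 (log2 fold change -2.31). The shares in the run from ZNF653 to ZNF791, 26.1% higher and 21.7% lower, were also near those of all genes. Of 232 pairs of neighbouring members, 89 had both genes past the test, and in 65 of these (73.0%) both moved the same way, 59 upward and 6 downward. For neighbouring genes over the autosomes and the X chromosome this share was 68.0%, and for the other genes of chromosome 19 it was 70.8%, there mostly downward (117 of 155 pairs). The share among members was thus near the background.

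**Figure D3:**
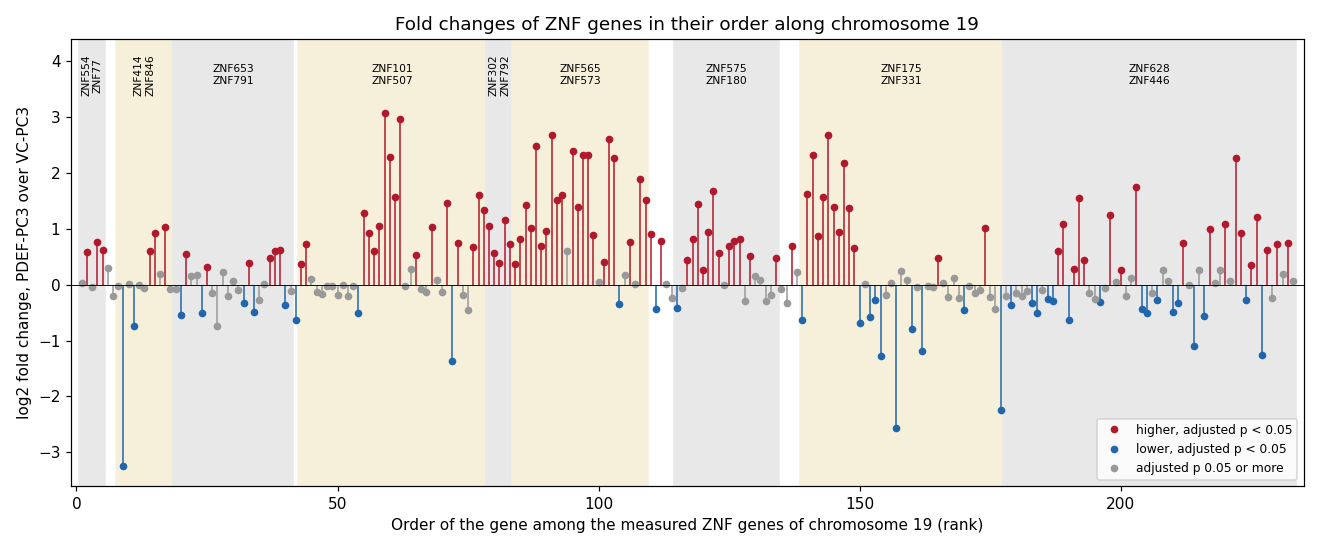
Log2 fold change from VC-PC3 to PDEF-PC3 (vertical axis) of the 233 ZNF genes in their order along chromosome 19 (horizontal axis, rank), coloured by the limma call, with shaded runs of neighbours named by their first and last gene. Between ZNF565 and ZNF573, 21 of 26 points are red and above 0, while the longest bars downward are ZNF558 at -3.24 and ZNF808 at -2.57.

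In the run from ZNF565 to ZNF573, most members were near or below background in VC-PC3. Of the 26, 2 were above background in VC-PC3 and 12 in PDEF-PC3. ZNF146, which encodes a short protein made almost only of fingers, was the brightest, with 8.60 and 8.66 in VC-PC3 and 9.31 and 9.56 in PDEF-PC3, a log2 fold change of 0.81. ZNF529, the other member above background in both groups, had 6.53 and 6.30 against 7.36 and 7.48, a 2.01-fold rise. ZNF566 had 5.86 and 5.68 against 7.21 and 7.18, at least 2.33-fold higher. ZNF420, whose protein is known to restrain p53-driven cell death, had 5.35 and 5.30 against 6.58 and 6.86, at least 1.68-fold higher. The paralogs ZNF585A and ZNF585B, which lie side by side, had log2 fold changes of 2.32 and 2.33. They may share signal on an array because they are so alike. ZNF568, whose mouse counterpart is known to repress a placental transcript of Igf2, had 3.02 and 3.23 in VC-PC3 and 5.51 and 5.51 in PDEF-PC3 (log2 fold change 2.39, adjusted p = 1.02e-05). Its PDEF-PC3 signals were still below the background gauge. The only member that fell was ZNF793, well below background in both groups, with 4.20 and 4.24 against 3.85 and 3.89. ZNF875, ZNF540, ZNF781 and ZNF829 did not pass the test, with log2 fold changes of 0.05, 0.17, 0.02 and 0.61. Between these members lie 4 other measured genes, 3 of them zinc finger genes of other names, and all of them rose. ZFP82 had 3.58 and 3.66 against 5.10 and 5.44, ZFP30 had 5.55 and 5.60 against 6.38 and 6.38, and ZFP14 and LINC00665 rose by 0.91 and 0.57. Of the 20 nearest measured genes outside the run, 10 on each side and none of them a member, 6 rose and 8 fell, with a median of -0.12. When each array was left out in turn, the median of the run was 1.1 to 1.27, against 1.2 with all arrays, and fewer members passed the test.

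**Figure D4:**
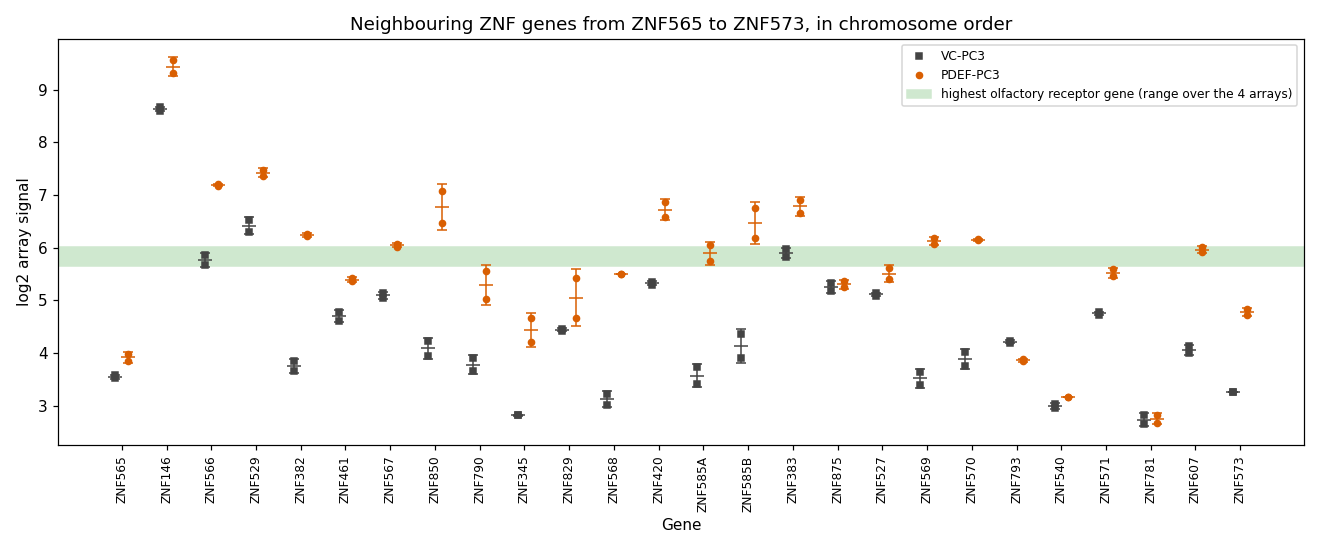
Log2 array signal (vertical axis) of the 26 neighbouring ZNF genes from ZNF565 to ZNF573 in chromosome order (horizontal axis) in VC-PC3 (squares) and PDEF-PC3 (circles), with group mean (line) and SD (bar, n = 2), and a band for the highest olfactory receptor gene (5.65 to 6.01). In 21 genes the circles lie higher with an adjusted p under 0.05, for example ZNF382 at 6.27 and 6.22 against 3.67 and 3.85, and ZNF793 is the gene that fell.

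This run also held every head-to-head pair of members found in the promoter table, that is, pairs on opposite strands whose starts lie at most 1000 bases apart and do not overlap. There were 6 such pairs, with 22 to 328 bases between the starts. Both genes rose in 5 of them, in a run where 80.8% of the members rose, and whether paired genes move together was not tested. In the pair of ZNF529 and ZNF382, with 56 bases between starts, the log2 fold changes were 1.01 and 2.49, and in VC-PC3 the former was above background and the latter was not. The stretch shown above for ZNF382 covers it. In the pair of ZNF569 and ZNF570, with 328 bases between starts, they were 2.61 and 2.26. ZNF790 and ZNF345 had 1.51 and 1.61, ZNF461 and ZNF567 had 0.69 and 0.96, and ZNF565 and ZNF146 had 0.37 and 0.81. The exception was ZNF829, with 4.42 and 4.46 against 4.67 and 5.43 (log2 fold change 0.61, adjusted p = 0.0674), beside ZNF568, which rose. The table holds promoters for 200 of the 233 members, so other pairs may exist.

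In the run from ZNF175 to ZNF331, most of the rises lay next to each other. The bounds of this stretch were chosen after the values were seen, so no test was made of them. Of the 39 members, 10 consecutive ones from ZNF577 to ZNF836 all rose, by 0.65 to 2.68 on the log2 scale. They include ZNF649, ZNF615 and ZNF841, and ZNF350, known as a DNA-binding partner of BRCA1, with 4.57 and 4.94 against 6.18 and 6.46. ZNF616 was above background in both groups, with 6.33 and 6.47 against 7.75 and 7.79. ZNF175, the first member of the run, fell, as given above. Beyond ZNF836 the members ZNF766, ZNF610, ZNF880, ZNF528, ZNF808, ZNF83, ZNF600, ZNF347 and ZNF331 fell. ZNF528 had 5.51 and 5.49 against 4.23 and 4.21, and ZNF600 had 4.94 and 5.20 against 3.95 and 3.83, both below background in both groups. Among these falling members ZNF320 and ZNF845 rose, ZNF845 from 7.07 and 7.20 to 8.16 and 8.12.

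The run from ZNF101 to ZNF507 had 17 of 36 members higher (47.2%, against 26.7% of all genes) and 2 lower (5.56%, against 24.0%), ZNF91 and ZNF85. Its median was 0.19, and 0.16 to 0.34 with 1 array left out, where fewer members were called higher. Of these 17 rises, 8 lay in consecutive members from ZNF430 to ZNF100, a stretch again chosen after the values were seen, with log2 fold changes of 0.60 to 3.07. ZNF430 had 5.46 and 5.73 in VC-PC3 and 6.63 and 7.14 in PDEF-PC3, and ZNF714 had 5.81 and 6.17 against 6.92 and 6.92. ZNF93, whose protein is known to repress a lineage of LINE-1 elements, was below background in both groups, with 3.51 and 2.96 against 2.93 and 3.23. Its relative ZNF91 fell, as given above. ZNF724 had 6.33 and 6.72 against 7.80 and 8.17 and was above background in both groups. The last members of the run, ZNF536 and ZNF507, lie apart from the family clusters. ZNF536, known as a gene of neurons, had 3.95 and 3.98 against 5.33 and 5.79, and ZNF507 had 7.11 and 7.13 against 8.39 and 8.50, a 2.51-fold rise. Of the 11 other measured genes that lie between members of this run, 4 also rose and 0 fell. These were POP4, CCNE1, URI1 and TSHZ3, with log2 fold changes of 1.2, 1.18, 0.42 and 0.91.

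In the other runs single genes stood out. ZNF57 led the run from ZNF554 to ZNF77, with 6.20 and 6.12 against 6.97 and 6.89 (1.71-fold higher). ZNF558 led the run from ZNF414 to ZNF846, in which 3 members rose (27.3%, against 26.7% of all genes) and 2 fell (18.2%, against 24.0%) of 11. ZNF155 led the run from ZNF575 to ZNF180, with 4.0 and 3.69 against 5.42 and 5.61, below background in both groups. ZNF256, whose protein is known to bind TRIM28, led the run from ZNF628 to ZNF446, with 4.15 and 4.42 against 6.45 and 6.65, at least 1.49-fold higher. ZNF274, named here for its known role after its values were seen, encodes a protein that brings SETDB1 to the finger-coding ends of zinc finger genes. It had 6.35 and 6.47 in VC-PC3 and 7.64 and 7.60 in PDEF-PC3, above background in both, and rose 2.31-fold (adjusted p = 7.61e-05).

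Promoters of the members held similar numbers of CpG whether or not the gene changed, with a median slightly below that of all genes. Over the 300 bases from 250 before to 50 after the RefSeq start, the median number of CpG was 20 in the 200 members with a sequence and 23 in the 14237 genes with one. It was 21 in members that rose, 21 in those that fell and 19 in those that did not pass the test. The ETS family to which PDEF belongs reads DNA around a GGAA or GGAT core, and PDEF is known to accept the latter. The letters CCGGAA, searched on both strands, were found in 109 member promoters (54.5%), in 46.6% of those of ZNF genes on other chromosomes, in 21.4% of those of other chromosome 19 genes and in 23.2% of all. Among members they were found in 51.7% of those that rose, 70.6% of those that fell and 50.6% of those that did not pass the test. The letters CCGGAT, which do not overlap the former search, were found in 12% of member promoters and 8.71% of all. They were found in 10.1% of the members that rose and 11.8% of those that fell. Of the upstream stretches shown above, those of ZNF100, ZNF558 and ZNF331 hold CCGGAA on one of the strands and none holds CCGGAT. These are counts of letters, and no binding was measured.

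The partners through which KRAB zinc finger proteins silence chromatin were measured beside the zinc finger genes themselves, and more of them rose than fell. Of 23 such genes listed, all were measured and above background in every array. The test called 13 of the 23 higher, 3 lower and 7 neither, with a median log2 fold change of 0.35. Of all genes above background in a group, 39.9% rose and 28.5% fell, with a median of 0.09. With the replicate number as a block 11 were higher and 3 lower, where 23.6% of all genes, dim ones included, rose and 19.7% fell. With each array left out in turn, fewer of the 23, and fewer of all genes, were called higher. TRIM28, the scaffold, had 10.36 and 10.23 in VC-PC3 and 10.73 and 10.63 in PDEF-PC3 (log2 fold change 0.39, standard error 0.092, adjusted p = 0.0133). SETDB1, the methyltransferase, had 7.74 and 7.62 against 8.09 and 8.0 (log2 fold change 0.37, adjusted p = 0.0151). With any array left out neither passed the threshold (adjusted p of 0.0526 to 0.115 for TRIM28 and of 0.0543 to 0.117 for SETDB1). The largest rise was that of SMARCAD1, a chromatin remodeller that binds TRIM28, with 7.34 and 7.36 against 8.65 and 8.83 (2.62-fold, adjusted p = 6.01e-05). TRIM24, a relative of TRIM28, had 7.72 and 7.50 against 8.62 and 8.73, and MORC2, an ATPase that works with the HUSH silencing complex, had 7.31 and 7.07 against 8.20 and 8.32. TASOR, a HUSH subunit, rose by 0.95, while PPHLN1, another subunit of that complex, fell by 0.50. TRIM33, a relative of TRIM24, and EHMT1, a histone methyltransferase gene, rose by 0.96 and 0.88. The histone deacetylase genes HDAC1 and HDAC2 rose by 0.73 and 0.83, and the DNA methyltransferase gene DNMT1 rose by 0.63. CHD3 and MORC3 fell by 0.39 and 0.68. The HP1 genes CBX1, CBX3 and CBX5 did not pass the test, with log2 fold changes of -0.22, -0.10 and 0.13. After quantile normalization or median centring 11 rose and 6 fell. Of all genes, dim ones included, 26.3% rose and 23.2% fell after the former, and 24.3% and 30.3% after the latter.

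**Figure D5:**
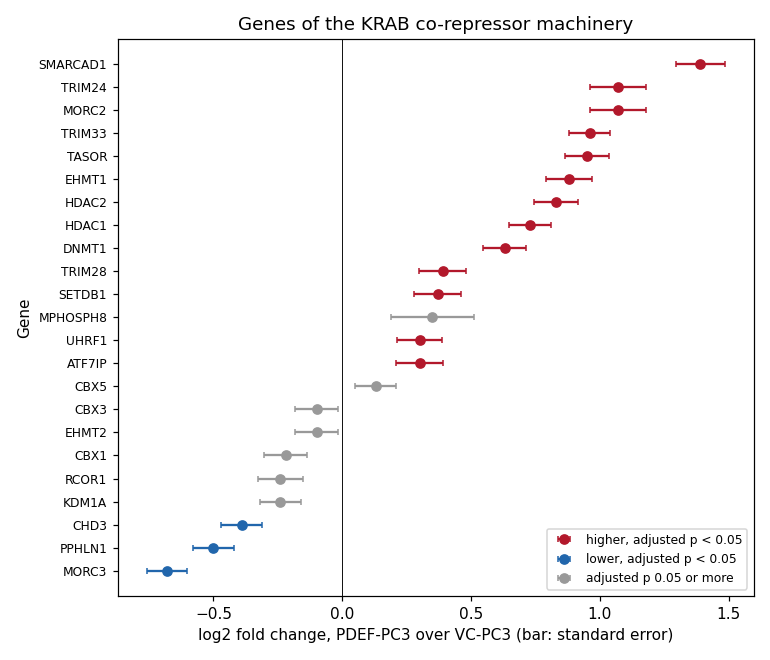
Log2 fold change from VC-PC3 to PDEF-PC3 (horizontal axis) of 23 genes of the KRAB co-repressor machinery (vertical axis), with bars for the standard error (n = 2 arrays in each group), coloured by the limma call. Red points, from ATF7IP at 0.30 to SMARCAD1 at 1.39, are the 13 genes that rose, and blue points are CHD3, PPHLN1 and MORC3.

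For 5 members more than 1 probe set named the gene alone, which gives a second reading. ZNF616 had log2 fold changes of 1.37 and 1.28 by its 2 probe sets, and ZNF493 of 2.29 and 1.45. The second probe set of ZNF493 was below background in all arrays, with 3.94 and 3.83 against 5.55 and 5.11. The fold limit given above for ZNF493 thus rests on 1 probe set. ZNF257 gave 0.54 and 0.29, the latter from a probe set far below background (2.28 and 2.8 against 2.77 and 2.89). ZNF208 gave 0.26, 0.25 and 0.28, although its probe sets differed widely in brightness. Only ZNF626 gave opposite signs, of 0.33 and -0.02, with both probe sets below background. The 8 pseudogenes were below background in every array, with 1 called higher, 2 called lower and 5 called neither.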

How the data were processed

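The data are 4 Affymetrix arrays, 2 of VC-PC3 and 2 of PDEF-PC3 cells. The values are log2 signals of 33297 probe sets, deposited by the authors, and the submitters' processing notes name Transcriptome Analysis Console. Not given in the sources used here are its version, background correction and normalization, and the log base was inferred from the range of values (1.68 to 13.88). Array medians were 5.41 to 5.46, so values were used as deposited, and a shift of all genes one way would not be seen. The number of arrays limits the precision, and the smallest two-sided p of an exact permutation test of 2 against 2 arrays is 0.333.

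Names of probe sets came from the platform annotation and the RefSeq gene table of GRCh38.p14 (99.8% matched). The 19460 with 1 symbol were kept, and the one with the highest mean stood for each of 18417 genes. The 1754 with several symbols and the 12083 not listed were not used. Genes were compared with limma 3.58.1 in R 4.3.3 (lmFit, eBayes, two-sided, 2 residual and 4.23 prior degrees of freedom), with Benjamini-Hochberg adjustment over all genes and no filter on dim genes. The fit was tested on simulated data. Promoter sequences are those of RefSeq for GRCh38.p14, found for 200 members.

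The members, the lists of markers and co-repressor genes and the rules were chosen with earlier results of these data known. Named members were the 12 largest rises and 12 largest falls that passed the test and were above background in the higher group, and the member with the largest difference of each run. Of the co-repressor list, TRIM28, SETDB1 and those with a 2-fold change were named, and others were named for their known role or position after their values were seen. A planned grouping by KRAB domain and protein identity was not made, for want of protein sequences. Alternatives were quantile normalization, median centring, filters on dim genes, the mean of all probe sets, a trended prior, the replicate number as a block, and leaving out each array. No source says what a shared replicate number means, and deviations of same-numbered arrays from their group means correlated at 0.022 over genes.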

Additional observations from a re-analysis of the deposited data

How the results depend on the processing

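No member called higher or lower changed sign under any of the alternatives. Of the 233 members, 91 rose and 28 fell with the replicate number as a block, where 23.6% and 19.7% of all genes did. After quantile normalization 100 rose and 35 fell, where 26.3% and 23.2% of all genes did. After median centring 94 rose (40.3%, against 24.3% of all genes) and 51 fell (21.9%, against 30.3%). With a test limited to genes above the median gene, 78 members were left, of which 35 rose (44.9%, against 42.7% of all genes) and 18 fell (23.1%, against 32.7%), 13 and 2 of them at least 2-fold, so that the excess of rises nearly vanished. With a test limited to genes above background in a group, 126 members were left, 70 rose (55.6%, against 42.9% of all genes), 23 fell (18.3%, against 31.4%), 5 of them at least 2-fold, and the median log2 fold change was 0.362, against 0.09 for all genes above background. Of these 126, 48 passed the filter in PDEF-PC3 alone and 5 in VC-PC3 alone, so the filter itself favours rises. Counting only members above background within the fit over all genes, an alternative chosen after seeing the data, left 20 lower. When each array was left out in turn, 65 to 74 members rose and 16 to 23 fell, 39 to 45 and 7 to 8 of them at least 2-fold. Of the co-repressor genes, 6 were lower after quantile normalization, after median centring, with a trended prior and under both filters. As reported 3 were lower, and the cause of the difference was not tested. In the fit as reported KDM1A, RCOR1 and CBX1 lay close to the threshold, with adjusted p of 0.0519, 0.0625 and 0.065 (limma). Their log2 fold changes were -0.24, -0.24 and -0.22. For 33 named genes and 343 fits of a gene under an alternative, 319 kept the direction and the side of the threshold, 23 no longer passed it and 1 newly passed it, and none turned. Many members lie near or below background, where a fitted fold change gives no size for the change in RNA.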
